A study of Mus musculus with 3 samples.

Results

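The secreted Wnt antagonists examined here are 10 genes, chosen by symbol: Sfrp1, Sfrp2, Sfrp4, Sfrp5, Frzb, Wif1, Dkk1, Dkk2, Dkk3 and Dkk4. Each had 1 entry among the 44625 gene entries of the table. Polyadenylated RNA was sequenced from 3 libraries of Alpha6+/Sca1- cells, that is, cells sorted for integrin alpha6 without Sca1, from the back skin of wild-type (WT) mice aged 56 days, when the hair follicles rest in their second telogen. All 3 libraries belong to 1 group, for which the labels name no treatment, and they are called replicates 1 to 3 after their titles. The protocol names an antibody to integrin alpha6 only, so the absence of Sca1 is known from the cell type label. The labels speak of biological duplicates although there are 3 libraries, so p-values measure the spread between these libraries, which may be technical.

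Wnt proteins bind Frizzled receptors together with the co-receptors Lrp5 and Lrp6, which stabilises beta-catenin and turns on target genes through Tcf/Lef factors. Secreted antagonists act outside the cell in different ways. The Sfrp proteins, including Frzb (also known as Sfrp3), carry a Frizzled-like domain and bind Wnts, and Wif1 binds Wnts through another domain. Dkk1, Dkk2 and Dkk4 bind Lrp5 and Lrp6, with Kremen proteins as further receptors, whereas Dkk3 is a divergent family member not known to act on Lrp5 and Lrp6 in that way. Wnt signalling starts the growth phase of the hair cycle, and Sfrp1, Wif1 and Dkk3 are known as genes of the resting bulge, the stem cell compartment of the follicle.

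The libraries held between 29283936 and 39198620 counts. The follicle stem cell markers were present, with all 10 of 10 listed genes at a level of at least 1 TPM (the read count corrected for gene length and library depth) in every library, among them Krt15, Cd34 and Lhx2. This limit does not single out stem cells, since 52.2% of 21408 protein-coding genes met it. So did 5 of 5 basal keratinocyte, 4 of 5 suprabasal epidermis and 4 of 5 sebaceous gland genes. Of the suprabasal genes, Krt10 had 1893 ± 904 TPM, Lor 917 ± 677 TPM and Krt1 435 ± 165 TPM (SD, n = 3). Markers of stromal cells, a well-known source of several antagonists in skin, were lower but not all absent. The 10 dermal papilla genes summed to between 10.2 and 12.9 TPM per library, with 2 of 10 at 1 TPM or more in all libraries, Hhip at 5.59 ± 1.38 and Hey1 at 5.01 ± 0.142 TPM (SD, n = 3), and Corin and Alpl, which define that cell type, had 1 and 2 counts over the 3 libraries. The 8 fibroblast genes summed to between 23.5 and 54.5 TPM, with 3 of 8 at 1 TPM or more. The collagen genes Col1a1, with 7.36, 21.6 and 23.3 TPM, and Col1a2, with 10.03, 23.2 and 16.7 TPM, made up most of that sum, followed by Thy1 with 5.48, 9.22 and 11.1 TPM, while Lum and Dpt were at 0 counts in all libraries. The 5 smooth muscle and pericyte genes summed to between 0.706 and 2.01 TPM. In this bulk RNA, fewer cells of a type and less RNA per cell cannot be told apart.

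Transcripts of 3 antagonists were abundant and those of the other 7 were at or near 0. With a TPM of at least 1 in all 3 libraries counted as detected, Sfrp1, Wif1 and Dkk3 were detected, 3 of 10 members, against 52.2% of 21408 protein-coding genes. Dkk3 had 503, 730 and 805 TPM in replicates 1, 2 and 3, from 18202, 33562 and 41700 counts. Sfrp1 had 377, 698 and 808 TPM, from 17782, 41775 and 54474 counts. Both genes were lowest in replicate 1 and close together in the others. Wif1 had 100.2, 123.7 and 105.6 TPM, from 2622, 4111 and 3954 counts, so its libraries lay within a 1.23-fold range while those of Sfrp1 spanned 2.14-fold. By mean level these were 679 ± 157 TPM for Dkk3, 628 ± 224 TPM for Sfrp1 and 109.9 ± 12.3 TPM for Wif1 (SD, n = 3), which placed Dkk3 at rank 181, Sfrp1 at rank 192 and Wif1 at rank 1103 of 44546 genes. The plot of antagonist levels by library shows the gap between these genes and the rest.

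**Figure D1:**
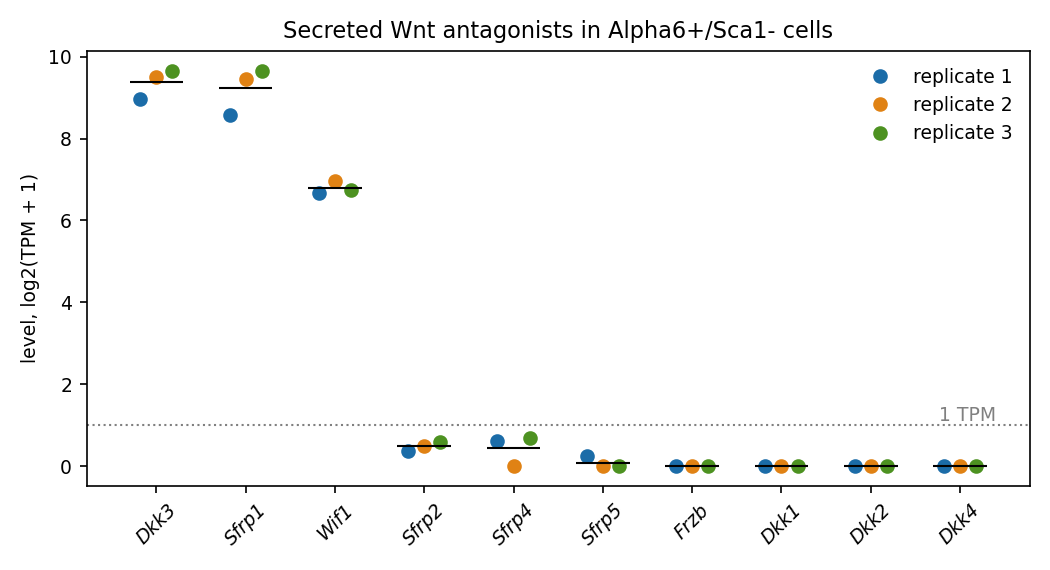
Levels of the 10 secreted Wnt antagonists on the log2(TPM + 1) scale, with 1 point per library and a black line at the mean of the 3 libraries; the dotted line marks 1 TPM. Dkk3, Sfrp1 and Wif1 lie far above the line in every library, and the other 7 genes lie below it.

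Among the Wnt-binding antagonists below the limit, Sfrp2, a product typical of fibroblasts, had 7, 12 and 17 counts, or 0.302, 0.407 and 0.512 TPM. An antisense gene on the opposite strand, Gm26771, overlaps Sfrp2, and whether counting used strand is not given in the sources used here. Sfrp4 had 10, 0 and 17 counts in replicates 1, 2 and 3, or 0.528, 0 and 0.628 TPM, so replicate 2 held none where the others held a few. Sfrp5 had 4 counts in replicate 1 and 0 in the others. Frzb had 0 counts in all 3 libraries, which allows a level of up to 0.0860 TPM.

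None of the antagonists that bind Lrp5 and Lrp6 had a single count in any of the 3 libraries. Dkk1, a potent inhibitor made by the dermal papilla, could have been present at up to 0.115 TPM, given the limit of 3 counts that a count of 0 allows. The same limit was 0.0751 TPM for Dkk2 and 0.212 TPM for Dkk4, which is made by early hair placodes. These limits cover counting error only. The receptors for these proteins were present in the same libraries. Lrp5 had 29.0, 48.6 and 56.6 TPM, Lrp6 had 31.1, 34.4 and 35.4 TPM, and Kremen1 had 45.2, 46.7 and 50.4 TPM. Kremen2 was lower, with 11.1, 8.25 and 6.53 TPM. Each of these receptors was above the Dkk1, Dkk2 and Dkk4 limits in every library.

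Neighbours in the order of mean levels were compared within each library on the log2(TPM + 1) scale. That order was taken from these same libraries, so the direction of a difference was largely set before the test. The p-values below therefore lend no weight to the order. Dkk3 and Sfrp1 did not differ beyond their spread, with differences of 0.41, 0.06 and -0.01 in replicates 1, 2 and 3 and a mean of 0.16 ± 0.22 (SD, n = 3; two-sided exact sign-flip p = 0.5, Benjamini-Hochberg adjusted p = 0.625 over 5 pairs). Without replicate 1 this mean was 0.03. Sfrp1 lay above Wif1 by 2.44 ± 0.51, higher in 3 of 3 libraries (exact p = 0.25, adjusted p = 0.625), and Wif1 lay above Sfrp2 by 6.30 ± 0.17, also in 3 of 3 libraries (exact p = 0.25, adjusted p = 0.625). With 3 libraries 0.25 is the smallest p the test allows, so no difference can pass a threshold of 0.05. Sfrp2 and Sfrp4 differed by 0.05 ± 0.39 with changing sign (exact p = 1), and Sfrp4 and Sfrp5 by 0.35 ± 0.35 (exact p = 0.5, adjusted p = 0.625). The other 4 members share the level of 0 and have no order.

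Together the 10 antagonists reached 981, 1552 and 1719 TPM, a mean of 1417 ± 387 TPM (SD, n = 3). Dkk3 made up 48.4% ± 2.49 of this sum, Sfrp1 43.5% ± 4.46 and Wif1 8.11% ± 2.04. The other 7 genes added 1.03, 0.407 and 1.14 TPM. The 19 Wnt ligands, read in the same libraries, summed to 158, 208 and 174 TPM, led by Wnt7b with 57.9 ± 7.16 TPM, Wnt10a with 44.9 ± 13.2 TPM and Wnt4 with 35.8 ± 5.53 TPM. Antagonist transcripts thus exceeded ligand transcripts 6.20-, 7.46- and 9.87-fold, a mean log2 ratio of 2.94 ± 0.34 (3 of 3 libraries; exact sign-flip p = 0.25, the smallest possible). With the Wnt-binding antagonists alone, that is Sfrp1 and Wif1 with traces of 3 others and Frzb at 0, the ratio was 3.02-, 3.95- and 5.25-fold. The bar chart of summed transcripts shows both groups side by side.

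**Figure D2:**
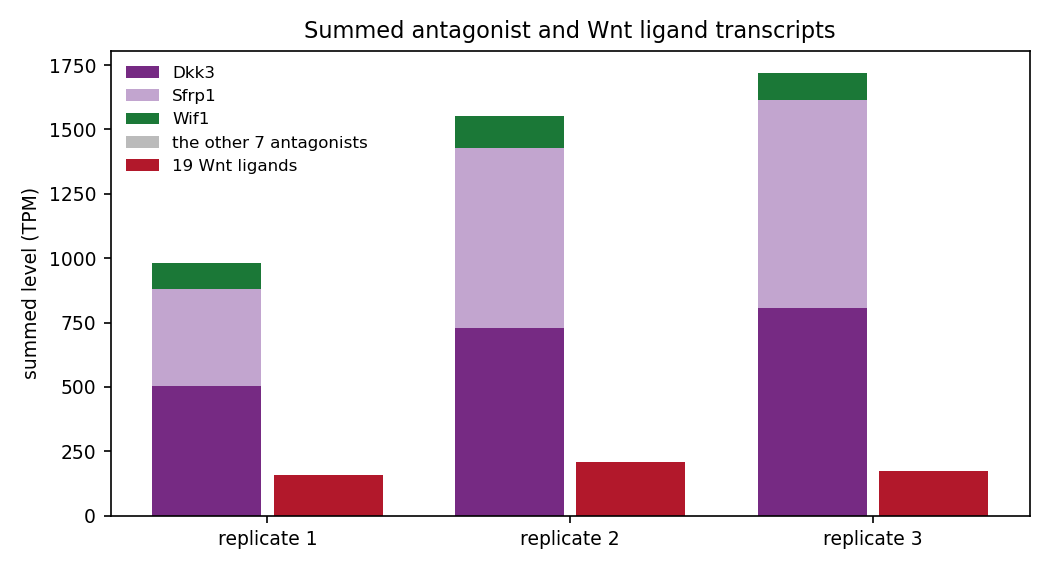
Summed level in TPM of the 10 antagonists (left bar, stacked by gene) and of the 19 Wnt ligands (right bar) in each library. The antagonist bar is higher in all 3 libraries, and Dkk3 and Sfrp1 fill most of it; the 7 remaining antagonists sum to at most 1.14 TPM and are too low to see.

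Of the other Wnt pathway genes, the 3 highest in each list set the scale. Among other extracellular modulators these were Sostdc1, a secreted antagonist of BMP and Wnt signalling, with 511 ± 56.5 TPM, Igfbp4, a binding protein of insulin-like growth factors, with 205 ± 33.6 TPM, and Trabd2b, a membrane protease that cleaves Wnts, with 111 ± 7.56 TPM (SD, n = 3). Sostdc1 was thus in the range of Sfrp1 and Dkk3, and Trabd2b in that of Wif1. Among partners and co-receptors the highest were Fzd2 with 323 ± 110.4 TPM, Fzd7 with 228 ± 57.9 TPM and Ryk with 157 ± 28.6 TPM. Of the Wnt target and feedback genes, Myc had 135 ± 26.4 TPM, Lgr5 had 90.1 ± 5.04 TPM and Ccnd1 had 51.1 ± 11.4 TPM. Detection covered 9 of 19 ligands, 17 of 17 partners and co-receptors, 9 of 15 other modulators and 9 of 10 targets. Among all 21408 protein-coding genes it covered 52.2%, so the ligands and the other modulators were near that share.

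Replicate 1 held less Sfrp1 and Dkk3 than the other libraries. It also stood apart in other measures, with 14121 genes at 1 TPM or more, against 13089 and 13026 in replicates 2 and 3. Mitochondrial genes took 4.26% of its counts, against 6.20% and 5.83%. The log2 ratio of replicate 1 to the mean of the others was -0.99 for Sfrp1, -0.61 for Dkk3 and -0.19 for Wif1 on the log2(TPM + 1) scale; with TMM scaling that of Wif1 was -0.37. The median of this ratio was 0.21 over all 11759 protein-coding genes with a mean of at least 1 TPM and -0.07 over the 1042 with a mean of 100 to 1000 TPM. Of the latter, 1.06% had a lower ratio than Sfrp1, 6.05% a lower one than Dkk3 and 35.7% a lower one than Wif1. Several marker lists moved between libraries too. The 5 suprabasal epidermis genes summed to 1648, 3144 and 5017 TPM in replicates 1, 2 and 3, with none of them at 0. The 8 fibroblast genes summed to 23.5, 54.5 and 51.5 TPM, and the 10 follicle stem cell genes to 27419, 33364 and 31699 TPM. Krt15 alone, with 19607, 25612 and 24404.5 TPM, made up most of the stem cell sum. Postn, with 2066, 1142 and 1254 TPM, and Fst, with 483, 326 and 388 TPM, were highest in replicate 1. So were the sums of the dermal papilla genes, with 12.9, 11.0 and 10.2 TPM, and of the melanocyte genes, with 16.0, 14.6 and 15.8 TPM. The part of these marker genes in the lower Sfrp1 and Dkk3 of replicate 1 was not tested.

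The protein-coding genes nearest to Dkk3 by Euclidean distance of log2(TPM + 1) over the 3 libraries were Sparc (distance 0.12), a matrix glycoprotein with 484, 777 and 832 TPM, Nbl1 (0.13), a secreted BMP antagonist with 511, 707 and 740.3 TPM, and Krt6a (0.13), a keratin with 489.7, 672 and 831 TPM. Those nearest to Sfrp1 were Krt80 (0.26), a keratin with 390.4, 657 and 683 TPM, then Krt6a (0.38) and Sparc (0.39). All of these were lowest in replicate 1. With 3 libraries the distance reflects mainly the level, and it is given as a description.

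The authors compared expression and deposited a log2 fold change and an adjusted p-value per gene. From column names the other side was taken to be bulge libraries, which were not analysed here. A positive value means higher in the Alpha6+/Sca1- libraries, since all 2555 genes with 0 counts in the 3 libraries and a fold change had a negative one. In the authors' deposited table, 6 of the 10 antagonists had an adjusted p-value, and 2 of these 6 were under 0.05, 1 higher and 1 lower. The background in the authors' deposited table was 55.5% of 20274 genes called, 23.6% higher and 32.0% lower, so the share of antagonists called was no larger than that of genes at large. The median log2 fold change in the authors' deposited table was -0.80 over the 6 antagonists and -0.36 over all 20274 genes.

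Wif1 was the antagonist called higher, with a log2 fold change of 1.98 and an adjusted p-value of 2.93e-13 in the authors' deposited table, which is 3.94-fold. Sfrp1 was called lower, with -0.997 and 0.00416 in the authors' deposited table. Dkk3 had -0.60 with an adjusted p-value of 0.0559 in the authors' deposited table, just above the threshold. The levels of both genes here were lowest in replicate 1, and how the authors' values would change without that library was not tested. Sfrp2 had -1.10 (adjusted p-value 0.309), Sfrp4 had 0.78 (0.649) and Dkk4 had -2.68 (0.0924) in the authors' deposited table, all resting on few or 0 counts in these libraries. Sfrp5 and Dkk2 had a fold change without an adjusted p-value there, and Dkk1 and Frzb had neither. With an absolute log2 fold change of at least 1 required as well, Wif1 alone was called in the authors' deposited table, 1 of 6 antagonists against 46.3% of all genes. Cell type markers moved there too. All 5 of 5 suprabasal epidermis genes (median log2 fold change 3.17) and 3 of 5 sebaceous gland genes were called higher, against 23.6% of all genes. Of 10 follicle stem cell genes, 4 were higher and 3 lower. Their part in the values of the antagonists was not tested.

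Other genes of the pathway went both ways in the authors' deposited table. The counts below stand beside 55.5% of all 20274 genes called there, 23.6% higher and 32.0% lower. Of 15 Wnt ligands with an adjusted p-value, 8 were called higher, 1 lower and 6 neither, with Wnt7b at 2.77 (adjusted p-value 3.95e-20), Wnt10a at 2.12 (3.43e-08) and Wnt4 at 1.07 (0.000234) in the authors' deposited table. Of 17 partners and co-receptors in the authors' deposited table, 7 were higher, 4 lower and 6 neither; the co-receptor Lrp6 was lower at -1.24 (5.42e-07) and Kremen1 higher at 1.41 (1.07e-09). Of 10 other modulators in the authors' deposited table, 4 were higher, 2 lower and 4 neither, with Igfbp4 at 2.92 (1.20e-25), Sostdc1 at -0.77 (0.00232) and Trabd2b at 0.09 (0.764). Of 9 targets in the authors' deposited table, 2 were higher, 1 lower and 6 neither; Lgr5 had -1.47 (5.64e-12), Myc -0.35 (0.205) and Ccnd1 0.36 (0.333). The plot of fold changes by gene list shows values on both sides of 0 in every list.

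**Figure D3:**
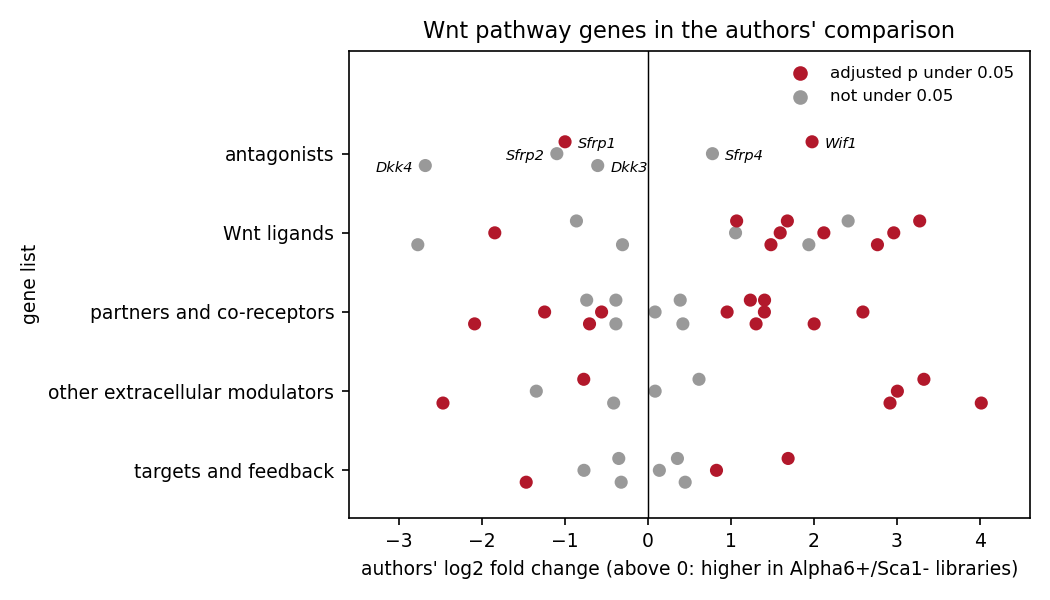
The authors' log2 fold change (horizontal axis) of every gene with an adjusted p-value in 5 gene lists (vertical axis); the points of a list are spread vertically for visibility only. Red points have an adjusted p-value under 0.05 in the authors' deposited table, which holds for Wif1 at 1.98 and Sfrp1 at -0.997 among the antagonists.

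The table also gives each gene a whole number headed H3K27me3, after the histone mark that Polycomb complexes place on repressed genes. Its unit and the cells it was measured in are not given in the sources used here. In the authors' deposited table, 7 of the 10 antagonists had an H3K27me3 value above 0, against 11.2% of 21408 protein-coding genes. Of the 7 antagonists that were not detected, 6 had a value above 0, and 20.6% of 9649 protein-coding genes with a mean under 1 TPM had one. The H3K27me3 value in the authors' deposited table was 17021 for Dkk1, 9838 for Sfrp2, 8108 for Sfrp5, 7548 for Dkk2, 5887 for Frzb and 4556 for Sfrp4. Dkk4 had 0 counts and also 0 in the H3K27me3 column of the authors' deposited table. The median over the 3597 entries above 0 was 7593, so Dkk2 lay just below it. Dkk1 shared its value with 1 gene of its chromosome, the pseudogene Ppp1r2-ps3, and for the other 6 antagonists no gene on the same chromosome had the same number.

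Among the detected antagonists, the H3K27me3 column of the authors' deposited table was at 0 for Sfrp1 and Dkk3 and at 10716 for Wif1. Wif1 lies on GRCm38 chromosome 10, from 121033960 to 121100650 on the plus strand. Its nearest protein-coding neighbours, Lemd3 and Tbc1d30, had a value of 0, as did both neighbours of Sfrp4, Frzb and Dkk2, while Sfrp2, Sfrp5 and Dkk1 each had 1 neighbour with a value above 0. Of the 2398 protein-coding genes above 0 in that column of the authors' deposited table, 17.3% had a mean of at least 1 TPM, against 59.7% of the 19010 genes with a value of 0. A mean at least as high as that of Wif1 was found for 21 of them, or 0.876%, against 5.47% of the genes with a value of 0. Among the 773 genes with a value at least as large as that of Wif1, 4 reached its level, namely Wif1, Tsc22d3, Hsd17b10 and H2-Q6. These were singled out after their values were seen. The authors' score multiplies the fold change, on the log2 scale, by the strength of its adjusted p-value, as -log10, and by the H3K27me3 value with 1 added, so it takes the sign of the fold change. It placed Wif1 at rank 14 of 20274 in the authors' deposited table, close to the ligand Wnt7b at rank 11, which had 6071 as its value. The scatter plot of H3K27me3 value and level shows Wif1 apart from the other marked antagonists.

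**Figure D4:**
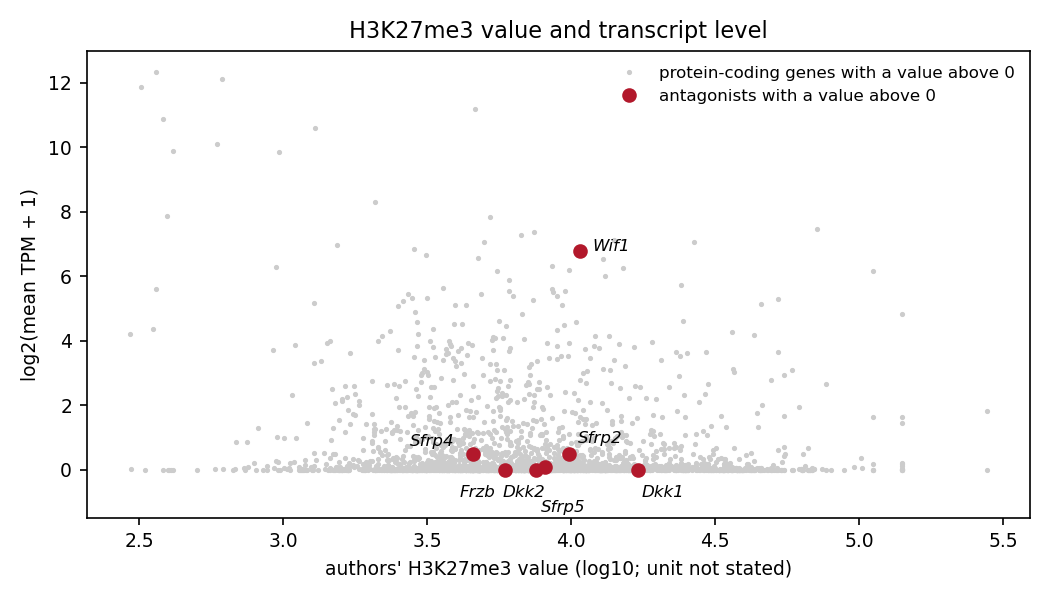
The authors' H3K27me3 value (horizontal, log10) and the mean level over the 3 libraries (vertical, log2(TPM + 1)) of the 2398 protein-coding genes above 0 (grey) and of the 7 antagonists among them (red). Wif1 lies at 109.9 TPM and the other 6 antagonists below 1 TPM; Sfrp1, Dkk3 and Dkk4 have a value of 0 and are not drawn.

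Promoter sequence was examined because the repressive mark is known to favour promoters rich in CpG dinucleotides. Windows of 200 bases, from 250 to 51 bases before the RefSeq start (GRCm38.p6), were read for 6 of the 10 antagonists, Wif1, Sfrp2, Frzb, Sfrp5, Dkk2 and Dkk1; Sfrp1, Sfrp4, Dkk3 and Dkk4 were not matched. The windows of Wif1, the expressed gene, and of Sfrp2 and Dkk2, both with a value above 0 and little or no transcript, are shown 5′ to 3′ on the strand of the gene, with each CpG in capitals. They lie at chr10:121033754-121033953 for Wif1, chr3:83766071-83766270 for Sfrp2 and chr3:132085042-132085241 for Dkk2, all on the plus strand.
Wif1: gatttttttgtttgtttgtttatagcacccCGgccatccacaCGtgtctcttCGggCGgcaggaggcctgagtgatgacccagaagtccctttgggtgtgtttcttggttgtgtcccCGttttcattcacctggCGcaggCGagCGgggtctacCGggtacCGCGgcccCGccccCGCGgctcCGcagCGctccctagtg
Sfrp2: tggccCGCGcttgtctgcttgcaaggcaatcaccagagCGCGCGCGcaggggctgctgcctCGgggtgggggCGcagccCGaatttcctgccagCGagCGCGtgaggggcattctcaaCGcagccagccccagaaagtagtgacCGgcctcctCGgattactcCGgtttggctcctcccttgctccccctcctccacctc
Dkk2: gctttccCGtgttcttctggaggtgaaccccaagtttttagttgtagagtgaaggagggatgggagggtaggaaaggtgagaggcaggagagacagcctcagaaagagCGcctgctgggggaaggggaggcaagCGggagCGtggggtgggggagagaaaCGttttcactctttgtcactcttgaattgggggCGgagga

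Wif1 and Sfrp2 had the same CpG number, 16, although their levels were 109.9 and 0.407 TPM. Dkk2 had 6 CpG dinucleotides, Sfrp5 had 8, Frzb had 11 and Dkk1 had 3. Over 32851 promoter windows of the same length the median was 4, with quartiles at 2 and 11, and 14.0% of windows held more CpG dinucleotides than Wif1 and Sfrp2. By the GENCODE annotation, 119 of the 200 bases of the Dkk1 window and 179 of those of the Frzb window lie inside the gene, so their CpG numbers are mostly not those of promoter sequence by that annotation. The histogram of CpG numbers places the antagonists among all windows.

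**Figure D5:**
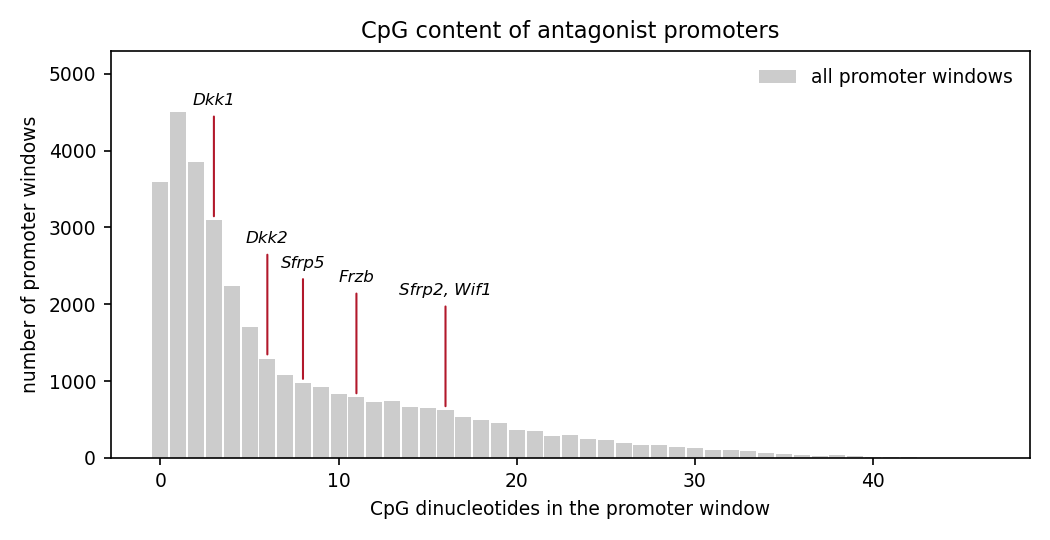
Number of promoter windows (vertical) by CpG dinucleotides per window of 200 bases (horizontal), over 32851 windows; the red lines mark the windows of 6 antagonists. Dkk1 lies at 3, below the median of 4, and Wif1 and Sfrp2 at 16, above the upper quartile of 11.

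The same windows were searched for CTTTGA, the core of the sequence that Tcf/Lef factors recognise, on both strands (TCAAAG on the other). A match was found in 2 of the 6 windows, against 11.8% of all windows. Dkk1, known as a Wnt target gene, held 2 matches, 174 and 117 bases before its RefSeq start, and 0.935% of all windows held at least 2. Frzb held 1, 95 bases before its start. They are shown with 20 bases each, 5′ to 3′ on the minus strand of the genome, which is the strand of both genes, with the match in capitals, at chr19:30549658-30549677 and chr19:30549601-30549620 for Dkk1 and chr2:80447479-80447498 for Frzb.
Dkk1 upstream: gagagtgTCAAAGtcctccc
Dkk1 downstream: cccaaagCTTTGAaatccca
Frzb: tgaaaacTCAAAGccttctc

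No match was found in the windows of Wif1, Sfrp2, Sfrp5 and Dkk2, which says only that these letters are not in those bases. Both genes with a match had 0 counts in the 3 libraries. Since the gene starts in GENCODE lie further upstream for Dkk1 and Frzb, the Frzb match and the Dkk1 match nearer to the RefSeq start fall inside the annotated gene, and the distances given hold for the RefSeq start only. A match is a description of the sequence and not a measured binding site.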

How the data were processed

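The authors deposited whole-number read counts and TPM per gene for 3 libraries, per the file headers, with no statement of the counter, strand setting or filters. The submitters' processing notes name TopHat2, SAMtools, FastQC, DESeq and DESeq2 and the builds mm10 and GRCm38, without roles. The authors also deposited a log2 fold change, an adjusted p-value, a score and an H3K27me3 value per gene, per the file headers. Another 6 columns of per-sample values match no sample and were not used. GENCODE M21 (GRCm38) gave positions and gene types for 44392 of 44625 identifiers. Where a symbol occurred more than once, its most highly expressed entry was used (44546 genes).

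Levels were compared as log2(TPM + 1) within libraries by exact sign-flip tests (Python 3.11.15); with 1 group, no differential test was fitted. The calculations were tested on simulated data. edgeR 4.0.16 gave TMM factors for an alternative scaling; other alternatives changed the pseudocount, unit, limits and libraries. All 10 members are named, and the 3 genes of highest mean TPM in each pathway list; Lrp5, Lrp6 and the Kremen genes were named by role after their values were seen. The members and lists were chosen with earlier results of these data known. Promoter sequences are from RefSeq (GRCm38.p6).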

Additional observations from a re-analysis of the deposited data

How the results depend on the processing

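Over 14 results and 60 alternatives, 54 kept their direction and their side of the threshold or moved by less than the spread. The sign-flip tests among them could not change their side of the threshold, because their p cannot fall below 0.25 with 3 libraries. For these tests, keeping that side therefore says nothing about robustness. The direction of the neighbouring pairs was also largely set by ordering the same libraries. The order of Dkk3 and Sfrp1 turned with CPM in place of TPM, to a difference of -0.22 on the log2 scale, since CPM does not correct for gene length; the share of Dkk3 in the summed level was then 43.7%. Leaving out 1 library moved the difference of Sfrp2 and Sfrp4 between -0.17 (without replicate 2) and 0.19 (without replicate 1). Asking for an absolute log2 fold change of at least 1 left 1 antagonist called in the authors' deposited table, Wif1, against 46.3% of all genes. An H3K27me3 value at or above the median of values above 0 was held by 4 of the 7 antagonists with a value above 0. A median splits such values evenly, so this is near the share of all entries with a value. TMM scaling, which moved replicate 1 by -0.12 on the log2 scale, changed the ratio of replicate 1 to the others for Wif1 to -0.37. The number of detected antagonists stayed at 3 under every limit and left-out library tried. All comparisons were made within libraries, and no pairing between groups arises with 1 group. At these depths 3 counts, the limit for genes at 0, equalled a CPM of 0.0765 to 0.102.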
